A study of Mus musculus with 4 samples.

Results

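The extracellular control of bone morphogenetic protein (BMP) signalling was described through 9 genes, taken by symbol from the 32285 genes in the count tables: the ligands Bmp2 and Bmp4, the secreted modulators Vstm2a, Grem1, Bmper and Fst, the receptors Bmpr1a and Bmpr2, and the target gene Id1. All 9 were measured in each library. The set was chosen by levels measured in these same libraries, with earlier results known, so these levels are given as a description that supports nothing by itself.

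The study asked how far adipocytes that lose their fat in culture (de-differentiated fat cells, DFAT cells) resemble the cultured stromal precursors of the same fat depot. DFAT cells were raised by ceiling culture, in which floating adipocytes attach to the upper wall of a flask and spread, from the inguinal (iWAT) and the epididymal (eWAT) white adipose tissue of chow-fed male C57BL/6J mice. Adherent cells grown from the stromal vascular fraction (SVF) of the same 2 depots, which the study calls ASPCs, gave the other cultures. Single-cell RNA sequencing on the 10x Genomics platform was run once on each culture, so iWAT_DFAT, eWAT_DFAT, iWAT_SVF and eWAT_SVF are 1 library each. All 4 were detached with trypsin and sorted after a dead-cell stain. The age of the mice, the number pooled in a culture and the days in culture before sequencing are not given for these libraries in the sources used here.

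BMP ligands are secreted dimers that bring type I receptors such as BMPR1A together with type II receptors such as BMPR2. The complex phosphorylates receptor-regulated SMAD proteins, which enter the nucleus and switch on genes such as the Id family. Secreted antagonists, gremlin, follistatin and noggin among them, bind the ligands outside the cell and keep them from their receptors. In adipose tissue BMP4 and BMP2 are known for committing precursor cells to the adipocyte lineage, and VSTM2A, a secreted immunoglobulin-domain protein, is known for raising BMP signalling in preadipocytes.

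The stretches just upstream of Vstm2a, Grem1 and Bmp4 are shown because these 3 genes carried the widest ratios between libraries. Each run holds the 250 bases before the RefSeq start on GRCm38.p6, 5′ to 3′ on the strand of the gene. They lie at chr11:16257492-16257741 on the plus strand for Vstm2a, at chr2:113758649-113758898 on the minus strand for Grem1 and at chr14:46390670-46390919 on the minus strand for Bmp4. Capitals mark matches to GGCGCC, a GC-rich element that BMP-regulated SMADs are known to bind, and to CAGAC, the SMAD-binding element, searched on both strands.
Vstm2a: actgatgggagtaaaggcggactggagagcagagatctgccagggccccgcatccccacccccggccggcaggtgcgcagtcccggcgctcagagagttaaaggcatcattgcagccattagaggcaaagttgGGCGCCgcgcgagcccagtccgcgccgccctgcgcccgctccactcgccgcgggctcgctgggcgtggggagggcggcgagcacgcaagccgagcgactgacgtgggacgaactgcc
Grem1: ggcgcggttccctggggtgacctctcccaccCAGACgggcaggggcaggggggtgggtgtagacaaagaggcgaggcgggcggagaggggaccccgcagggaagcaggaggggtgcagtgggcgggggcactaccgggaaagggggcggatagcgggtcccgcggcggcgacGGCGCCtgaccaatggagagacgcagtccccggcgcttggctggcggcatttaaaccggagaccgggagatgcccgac
Bmp4: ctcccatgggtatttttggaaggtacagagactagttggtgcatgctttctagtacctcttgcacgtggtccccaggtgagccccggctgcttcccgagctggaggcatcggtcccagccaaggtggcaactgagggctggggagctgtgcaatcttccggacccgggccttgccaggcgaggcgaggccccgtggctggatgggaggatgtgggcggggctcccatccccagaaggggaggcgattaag
The Vstm2a stretch held 1 GGCGCC, starting 117 bases before the start, and 28 CpG pairs at 70.0% GC. In the Grem1 stretch GGCGCC began 78 bases and CAGAC 219 bases before the start, among 24 CpG pairs at 72.0% GC. No match lay in the Bmp4 stretch, which had 11 CpG pairs at 63.2% GC. GGCGCC was found in 9.59% and CAGAC or its complement GTCTG in 42.2% of 32851 promoters of this length, whose median GC content was 52.4%. Of the 6 members with a RefSeq promoter, Bmpr1a and Bmpr2 also held GGCGCC, 198 and 105 bases before the RefSeq start, and Bmper held neither motif. By the GENCODE spans given below, the Bmpr1a and Bmpr2 stretches lie inside the genes, and the end of the Vstm2a stretch overlaps its gene. These 6 stretches had 63.2% to 78.8% GC, above the median of all promoters. No share among promoters of like GC content was taken, so an excess of GGCGCC cannot be read from these matches. TATAAA or its complement, present in 12.4% of the promoters, was in none of the 3.

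In the GENCODE M21 annotation of GRCm38 (mm10) Vstm2a (ENSMUSG00000048834) spans chromosome 11, 16257724 to 16427310, and only 2.81% of that span is exonic. Bmper (ENSMUSG00000031963; chromosome 9, 23223076 to 23485200) is the longest of the 9, with 1.84% in exons. Grem1 (ENSMUSG00000074934) lies on chromosome 2, 113746164 to 113758646, and Bmp4 (ENSMUSG00000021835) on chromosome 14, 46383520 to 46390669. Bmp2 (ENSMUSG00000027358; chromosome 2, 133552159 to 133562885) and Id1 (ENSMUSG00000042745; chromosome 2, 152736251 to 152737410) are compact. Fst (ENSMUSG00000021765) spans chromosome 13, 114452290 to 114458951, Bmpr1a (ENSMUSG00000021796) chromosome 14, 34410734 to 34503341, and Bmpr2 (ENSMUSG00000067336) chromosome 1, 59763400 to 59879014. Genes on the opposite strand overlap Bmp4 (Gm15217 and Gm15222), Fst (Gm47040) and Bmpr1a (Gm17110), and a gene on the same strand that is not in the count tables overlaps Bmpr2.

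Barcodes with 5000 to 75000 unique molecules (UMIs), 200 to 7500 genes and under 10% mitochondrial UMIs were taken as cells, 6464 to 7629 in a library, with a median of 22111 to 27617 UMIs. Between 13 and 20 cell barcodes were shared by a pair of libraries. Of 11 stromal markers, 6 to 9 had a UMI in at least 50% of the cells of a library. Their summed level was 8019, 7848 and 7093 CPM (counts per 1000000 UMIs) in iWAT_DFAT, iWAT_SVF and eWAT_SVF and 2423 CPM in eWAT_DFAT, which stood apart. The 8 adipocyte markers were summed at 347 CPM in iWAT_DFAT, 2210 in eWAT_DFAT, 81.7 in iWAT_SVF and 335 in eWAT_SVF, nearly all of it Fabp4, and Lep had no UMI in any library. The file header of iWAT_SVF names another version of the counting software than the other 3. Genes in the fifth with the longest introns had a median log2 ratio of 0.119 between iWAT_SVF and eWAT_SVF, against -0.011 for the fifth with the shortest. Between iWAT_DFAT and iWAT_SVF these medians were 0.278 and -0.064. They differed in the same way where iWAT_SVF had no part, at 0.252 and -0.034 between the DFAT libraries and 0.140 and -0.024 between eWAT_DFAT and eWAT_SVF. The part of the software version in the ratios of the intron-rich Vstm2a and Bmper was not tested.

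A level below is in CPM, from UMIs added up across all cells of the library, with an exact 95% Poisson interval. A ratio between libraries is given on the log2 scale with an exact conditional binomial interval. Both kinds of interval cover counting error and nothing else. Each condition being 1 library, the spread between cultures was not measured, no test was made, and the 4 comparisons share libraries. Some ratios are also given among cells with few cell cycle genes, with a UMI in under 5 S-phase and under 3 G2/M markers. This rule, applied at full depth, left 2851, 1516, 2465 and 2884 cells in iWAT_DFAT, eWAT_DFAT, iWAT_SVF and eWAT_SVF, other cell types included. A gene count at full depth falls with the depth of a cell, so depth and cell cycle cannot be told apart in these ratios.

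Bmp4 was the ligand with the widest range, and it was a gene of the SVF cultures. It stood at 0.327 CPM (60 UMIs) in iWAT_DFAT, 1.07 (198 UMIs) in eWAT_DFAT, 10.7 (2124 UMIs) in iWAT_SVF and 53.8 (10629 UMIs) in eWAT_SVF. Both SVF libraries lay above both DFAT libraries, and the 4 intervals did not overlap. Bmp4 was 32.6-fold lower in iWAT_DFAT than in iWAT_SVF (log2 ratio -5.03 [-5.42 to -4.66]). For eWAT it was 50.4-fold lower in DFAT cells (-5.66 [-5.87 to -5.45]), with a log2 ratio of -6.52 without clusters of other cell types and -4.78 among cells with few cell cycle genes. In these comparisons 0.710% and 0.330% of the genes past 5 CPM had a larger absolute ratio. The gene was chosen by its levels in these libraries, so nothing is read from this rank. Among SVF cells Bmp4 was 5.05-fold higher in eWAT than in iWAT (-2.34 [-2.40 to -2.27]).

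**Figure D1:**
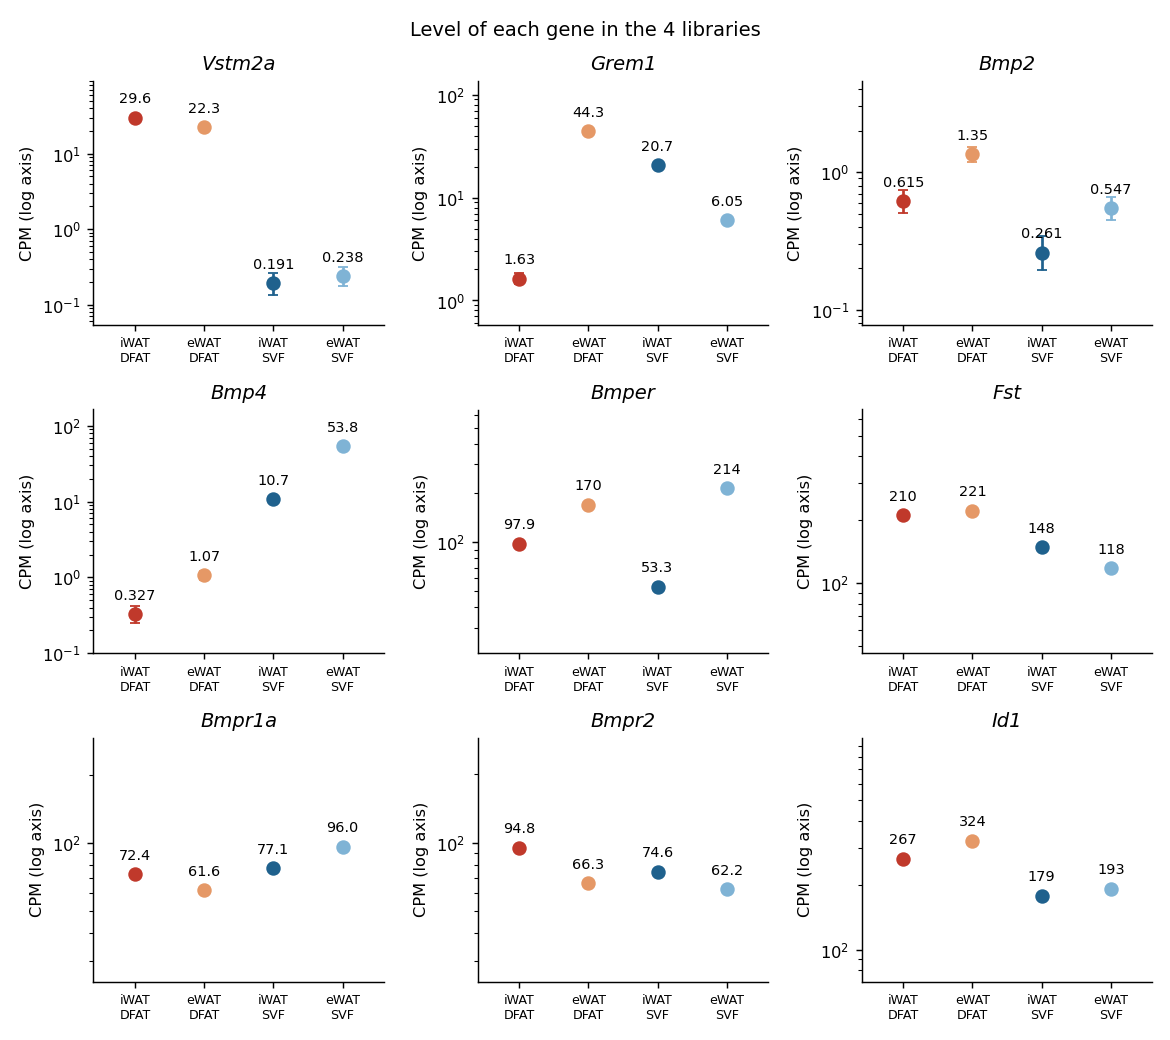
Level of each of the 9 genes in the 4 libraries, in CPM on a log axis, as a point per library with its exact 95% Poisson interval, which is narrower than the point where none is seen. Vstm2a is at 29.6 and 22.3 CPM in the DFAT libraries and under 1 CPM in the SVF libraries, Bmp4 runs from 0.327 to 53.8 CPM, and the receptor panels are nearly level.

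Clusters of cells were formed within each library without the pathway genes, and were named only where the markers of a cell type allowed it. Those with 3 or more stromal markers in at least 50% of their cells and no other name are called stromal-marker clusters. Of these 47 clusters, 4 had more markers of another type than stromal ones among their 10 leading genes, Plin1 in 2 of them, so the term is no cell type name. In the stromal-marker clusters of eWAT_SVF, Bmp4 ranged from 4.37 CPM, in the cluster led by Lrrc17 and Col15a1, to 171 [164 to 178] CPM in 514 cells led by Tnnt2 and Prss35. That single cluster held 24.1% of the Bmp4 UMIs of the library. The ligand was also high outside the stromal cells. Endothelial-like cells had 473 [432 to 516] CPM in iWAT_SVF, where 56 cells carried 23.9% of the Bmp4 UMIs, and 277 [256 to 299] CPM in eWAT_SVF. The latter were 2 clusters, one led by Nts, Stab1 and Prox1, the last a lymphatic gene, with 457 [419 to 497] CPM in 77 cells, the other led by Mecom and Cd93 with 97.0 [79.9 to 117] CPM in 57 cells. Mesothelial-like cells of eWAT_SVF, 7.23% of its cells, had 125 [119 to 132] CPM and 14.0% of the Bmp4 UMIs. In eWAT_DFAT, cells outside the stromal-marker clusters carried 55.6% of the few Bmp4 UMIs, and the stromal-marker cells themselves had 0.504 [0.404 to 0.621] CPM.

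Bmp2 was scarce in all 4 cultures. It stood at 0.615 CPM in iWAT_DFAT, 1.35 in eWAT_DFAT, 0.261 in iWAT_SVF and 0.547 in eWAT_SVF, from 52 to 251 UMIs a library. The eWAT library was above the iWAT library for either cell type (log2 ratios -1.14 in DFAT and -1.07 in SVF cells). Among cells with few cell cycle genes these ratios were -0.28 and 0.33, and without clusters of other cell types -1.43 and -2.28. Over all cells the DFAT library was above the SVF library of either depot (1.24 and 1.31, the latter 0.69 without clusters of other cell types). Every one of these levels was under the 5 CPM set as a minimum. Droplets with 1 to 100 UMIs, which hold free RNA, had 0.690, 1.08, 0 and 0.704 CPM, from 5, 8, 0 and 5 UMIs. With so few UMIs, and with droplets that carry the mean profile of a culture, this does not tell RNA of cells from free RNA. A few rare cells carried much of the Bmp2. In iWAT_DFAT 20 endothelial-like cells had 122 [91.1 to 161] CPM and 45.1% of the Bmp2 UMIs. Pericyte-like cells had 21.5 [17.0 to 26.9] CPM in eWAT_DFAT, where 184 cells held 30.7%, and 170 [113 to 246] CPM in iWAT_SVF, where 10 cells held 53.8%. The stromal-marker cells were at 0.119 to 0.922 CPM.

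Vstm2a was a gene of the DFAT cultures. Its level was 29.6 [28.9 to 30.4] CPM in iWAT_DFAT, 22.3 [21.6 to 23.0] in eWAT_DFAT, 0.191 [0.135 to 0.262] in iWAT_SVF and 0.238 [0.175 to 0.316] in eWAT_SVF, from 5444, 4134, 38 and 47 UMIs. The DFAT libraries were far above the SVF libraries, and the latter did not differ beyond counting error. In the SVF cultures free-RNA droplets had 0.280 [0.0339 to 1.01] and 0.282 [0.0341 to 1.02] CPM, no lower than the cells. Such droplets carry the mean profile of a culture, and in the DFAT cultures they had 29.1 and 21.5 CPM, also close to the cells. Within iWAT_SVF the highest of 13 stromal-marker clusters, 503 cells led by Dkk2 and Fmo2, had 1.26 [0.708 to 2.09] CPM, above the library's level. That cluster held 39.5% of the 38 UMIs, and 0.199% of its thinned cells had one. The highest stromal-marker cluster of eWAT_SVF, 571 cells led by Hp and Gda, had 0.970 [0.530 to 1.63] CPM. The ratio of DFAT to SVF cells was 7.28 [6.82 to 7.78] on the log2 scale for iWAT, or 156-fold. For eWAT it was 6.55 [6.13 to 7.00], or 93.6-fold, and 7.34 among cells with few cell cycle genes. Larger absolute ratios were found for 0.163% and 0.185% of the genes past 5 CPM, a rank from which nothing is read, since the gene was chosen by its levels. Between the DFAT libraries Vstm2a was 1.33-fold higher in iWAT (0.41 [0.35 to 0.47]), a ratio that 39.8% of the genes exceeded. Among cells with few cell cycle genes it was -0.08 in place of 0.41.

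Vstm2a UMIs were seen in a minority of the DFAT cells. After each cell was thinned to 5000 UMIs, 12.2% of iWAT_DFAT and 8.77% of eWAT_DFAT cells had one, against 0.0269% and 0.104% in the SVF libraries. At full depth the shares were 35.1%, 26.5%, 0.418% and 0.652%. The 144 endothelial-like cells of eWAT_DFAT had a thinned share of 0.694%, and the stromal-marker cells 8.83%, with median depths of 11392 and 28603 UMIs. That endothelial cells lack the gene is an assumption that was not checked. So few cells give only a rough background share. The 10% of cells with the most Vstm2a held 55.8% of its UMIs in iWAT_DFAT and 69.2% in eWAT_DFAT. In iWAT_DFAT the cluster led by G0s2, Plin1, Fabp4 and Cd36 (441 cells) had 101 [94.6 to 108] CPM, and the other stromal-marker clusters had 9.55 to 35.2. In eWAT_DFAT the cluster led by Prl2c5, Plin1, Il13ra2 and Prl2c3 (684 cells) had 95.0 [90.9 to 99.2] CPM and held 49.8% of the Vstm2a UMIs, with Vstm2a itself among its 10 leading genes. The other stromal-marker clusters of that library were between 6.26 and 21.1 CPM. The 94 adipocyte-like cells of eWAT_DFAT, led by Cfd, Car3, Cidec and Adipoq, had the highest level of any cluster, 116 [101 to 133] CPM. Prl2c genes are close copies of each other, so their reads may be split between them.

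**Figure D2:**
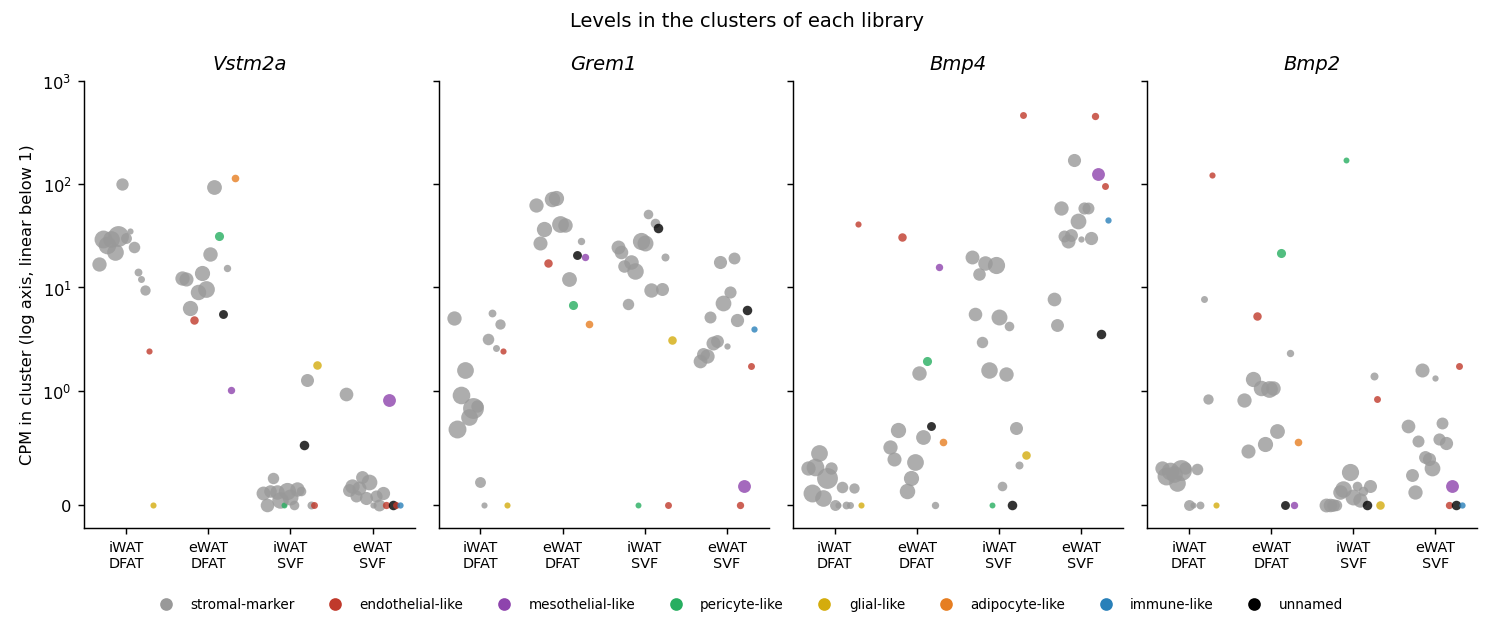
Level of Vstm2a, Grem1, Bmp4 and Bmp2 in the clusters of each library, in CPM on an axis that is logarithmic above 1 and linear below; each point is a cluster, its size grows with the number of cells and its colour gives its name. In both DFAT libraries a cluster led by Plin1 stands above the other stromal-marker clusters for Vstm2a (101 and 95.0 CPM), and small endothelial-like and pericyte-like clusters stand at the top for Bmp4 and Bmp2.

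Because in either DFAT library a cluster led by Plin1, the perilipin that coats the fat droplet of adipocytes, had the most Vstm2a of the stromal-marker clusters, cells with and without a Plin1 UMI were set side by side. This split was chosen after the cluster values had been seen. At 5000 UMIs per cell, 341 iWAT_DFAT cells with a Plin1 UMI had 91.5 [77.7 to 107] CPM of Vstm2a and 7288 cells without had 28.3 [26.6 to 30.1]. In eWAT_DFAT 458 cells with Plin1 had 116 [102 to 131] CPM and 6006 without had 14.7 [13.3 to 16.1]. The gene was thus higher beside Plin1 in both. At full depth 11.1% and 13.7% of the cells of these libraries had a Plin1 UMI, so the cells without one after thinning include many that had lost it. Over single cells Vstm2a and Plin1 had a Pearson r of 0.27 in iWAT_DFAT (7629 cells) and 0.52 in eWAT_DFAT (6464 cells). Vstm2a and Fabp4, a fatty acid carrier, had r of 0.28 and 0.42, and Vstm2a and Pparg, the master regulator of adipocytes, 0.24 and 0.36. Vstm2a and Prl2c3, a gene of the prolactin family, had r of 0.24 and 0.35. The points of such a correlation are cells of 1 library and share its depth. The adipocyte markers Adipoq, Cidec, Car3, Adig and Cidea had r with Vstm2a from -0.01 to 0.15. What the adipocyte markers contribute to the level of Vstm2a was not tested.

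Grem1, which encodes the BMP antagonist gremlin, did not follow cell type or depot alone. It was at 1.63 [1.45 to 1.83] CPM in iWAT_DFAT, 44.3 [43.4 to 45.3] in eWAT_DFAT, 20.7 [20.1 to 21.3] in iWAT_SVF and 6.05 [5.71 to 6.40] in eWAT_SVF. The highest and the lowest library were thus both DFAT, and the intervals did not overlap. Between the DFAT libraries Grem1 was 27.1-fold lower in iWAT (log2 ratio -4.76 [-4.93 to -4.60]), and 0.337% of genes had a larger absolute ratio. Nothing is read from this rank either, since Grem1 too was chosen by its levels. Between the SVF libraries it was 3.42-fold higher in iWAT (1.77 [1.68 to 1.87], and 2.56 among cells with few cell cycle genes). Against the SVF cells of its depot it was 12.7-fold lower in iWAT_DFAT and 7.32-fold higher in eWAT_DFAT. The free-RNA droplets of iWAT_DFAT had 1.24 [0.568 to 2.36] CPM, from 9 UMIs, which does not tell RNA of cells from free RNA. Grem1 was uneven in that library, since 634 cells led by Hsd3b6 and Tmprss11f had 5.07 [4.09 to 6.21] CPM and 31.0% of its UMIs.

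In eWAT_DFAT 13.9% of thinned cells had a Grem1 UMI, in eWAT_SVF 2.18% and in iWAT_DFAT 0.642%, with iWAT_SVF between the first and the second of these. At full depth the shares were 32.6% in eWAT_DFAT, 20.1% in iWAT_SVF, 5.68% in eWAT_SVF and 1.97% in iWAT_DFAT. Within eWAT_DFAT the highest stromal-marker clusters were led by the mitotic genes Cdc20 and Cenpf (73.7 [70.1 to 77.5] CPM) and by Map7d2 and Trdc (72.2 CPM). The lowest was the one led by Prl2c5 and Plin1, the richest in Vstm2a, at 12.2 [10.8 to 13.8] CPM. Adipocyte-like cells had 4.45 [1.92 to 8.77] CPM. The transcripts of the 2 secreted proteins thus peaked in different clusters of that culture. Cells of eWAT_DFAT with a Plin1 UMI had 10.5 [6.71 to 15.6] CPM of Grem1 and those without had 44.8 [42.5 to 47.3]. After thinning, 43 eWAT_DFAT cells held a UMI of both Vstm2a and Grem1, where 78.9 would have held both if the genes had been spread independently, and r over its 6464 cells was a weak -0.13. In iWAT_DFAT, where Grem1 was scarce, 8 cells held both, against 5.99 by the same reckoning, and r was -0.012. In iWAT_SVF Grem1 ran from 6.94 CPM, in the cluster led by Dlk1 and Gpx3, to 51.8 [46.1 to 58.0] CPM in 219 cells led by Prl2c2, Prl2c3 and Pparg. In eWAT_SVF the range was 1.94 to 19.2 CPM.

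**Figure D3:**
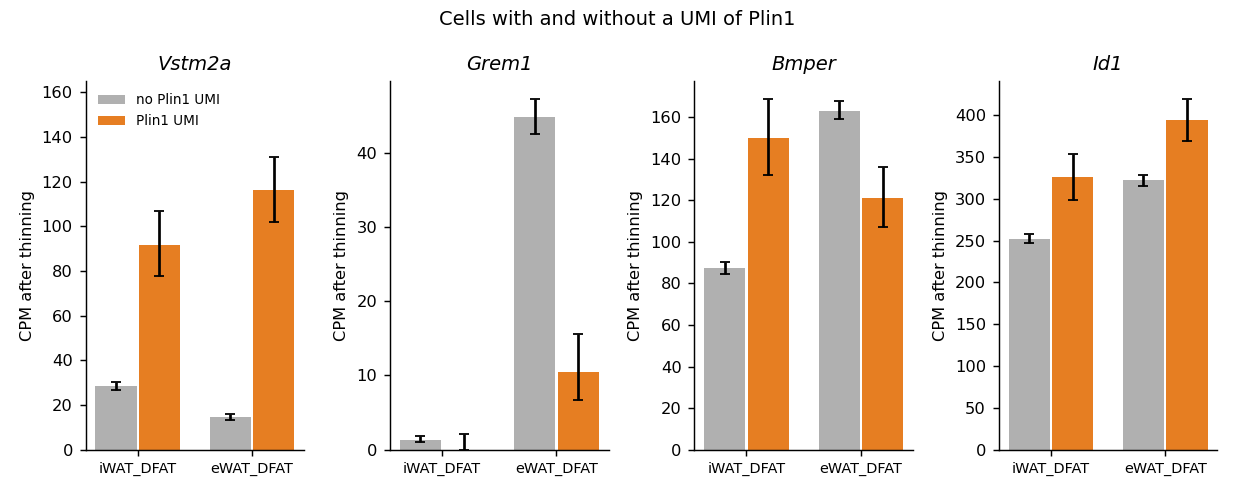
Levels of Vstm2a, Grem1, Bmper and Id1 in CPM after thinning each cell to 5000 UMIs, in DFAT cells with (orange) and without (grey) a UMI of Plin1; bars start at 0 and carry exact 95% Poisson intervals. Vstm2a is higher in cells with Plin1 in both libraries, Grem1 of eWAT_DFAT is lower (10.5 against 44.8 CPM), and Bmper goes opposite ways in the 2 libraries.

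Bmper encodes a secreted protein with cysteine-rich repeats that binds BMPs and can dampen or promote their action. It stood at 97.9 CPM in iWAT_DFAT, 170 in eWAT_DFAT, 53.3 in iWAT_SVF and 214 in eWAT_SVF. For both cell types the eWAT library was the higher, by 1.73-fold in DFAT cells (log2 ratio -0.79) and by 4.02-fold in SVF cells (-2.01 [-2.04 to -1.98]). Against SVF cells it was 1.84-fold higher in DFAT cells of iWAT and 1.26-fold lower in those of eWAT. In eWAT_SVF 53.4% of thinned cells had a UMI. The cluster led by Hp, Gda and Ccl11 (571 cells) had 470 [459 to 481] CPM, and the lowest stromal-marker cluster of that library 46.9. In iWAT_DFAT the cluster led by G0s2 and Plin1 was the highest for Bmper too, at 169 [161 to 178] CPM. In eWAT_DFAT the highest cluster was the one led by Map7d2 and Trdc (238 [232 to 245] CPM). Cells with a Plin1 UMI had 150 CPM against 87.5 without in iWAT_DFAT, and 121 against 163 in eWAT_DFAT.

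Fst, the gene of follistatin, which binds activins and some BMPs, was at 210 CPM in iWAT_DFAT, 221 in eWAT_DFAT, 148 in iWAT_SVF and 118 in eWAT_SVF. At full depth 85.7% of iWAT_DFAT and 82.5% of eWAT_DFAT cells had a UMI of it, and after thinning 52.6% and 50.6%. Of thinned cells without a Plin1 UMI, 52.6% in iWAT_DFAT, 52.7% in eWAT_DFAT, 39.6% in iWAT_SVF and 36.9% in eWAT_SVF had one. Free-RNA droplets had 75.1 to 187 CPM of Fst, so these shares do not tell how many cells express it. DFAT cells were above SVF cells, by 1.42-fold in iWAT and 1.88-fold in eWAT. Between depots Fst differed little, with log2 ratios of -0.0743 in DFAT and 0.33 in SVF cells. It was low in the adipocyte-like cells of eWAT_DFAT, at 17.8 [12.2 to 25.1] CPM, and cells of that library with a Plin1 UMI had 97.4 CPM against 223 without. Endothelial-like cells had 783 [731 to 838] CPM in iWAT_SVF and 269 [248 to 291] in eWAT_SVF. There the Nts and Prox1 cluster, the one rich in Bmp4, had 523 CPM and the Mecom and Cd93 cluster 13.7.

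The receptors varied least. Bmpr1a, the type I receptor, was at 72.4 CPM in iWAT_DFAT, 61.6 in eWAT_DFAT, 77.1 in iWAT_SVF and 96.0 in eWAT_SVF. Its log2 ratios were between -0.64, for eWAT_DFAT over eWAT_SVF, and 0.23. Bmpr2, the type II receptor, was at 94.8, 66.3, 74.6 and 62.2 CPM in the same order, with ratios from 0.0938 to 0.52. The cell types of the cultures differed more than the cultures. Endothelial-like cells had little Bmpr1a, 5.58 to 24.4 CPM over the 4 libraries, while their Bmpr2 was 97.7 to 202 CPM. Mesothelial-like cells of eWAT_SVF had 200 [192 to 208] CPM of Bmpr1a, glial-like cells 244 [187 to 314] in iWAT_DFAT and 129 [114 to 144] in iWAT_SVF, and adipocyte-like cells of eWAT_DFAT 179 [160 to 199]. Among stromal-marker clusters Bmpr2 was highest in the iWAT_DFAT cluster led by Chl1 and Wfdc17, at 156 [151 to 160] CPM.

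Id1, a helix-loop-helix inhibitor and an immediate target of BMP SMADs, was higher in DFAT than in SVF cells of either depot. Its level was 267 CPM in iWAT_DFAT, 324 in eWAT_DFAT, 179 in iWAT_SVF and 193 in eWAT_SVF. The 2 DFAT libraries lay above the 2 SVF libraries, by 1.49-fold in iWAT (log2 ratio 0.58 [0.56 to 0.60]) and 1.68-fold in eWAT (0.74 [0.73 to 0.76]). These ratios were not unusual, since 28.7% and 20.1% of genes had larger ones. Free-RNA droplets had 285, 321, 193 and 198 CPM, close to the cells. Of thinned cells 59.6%, 71.6%, 47.2% and 51.2% had an Id1 UMI. Shares of this size can follow from the level alone, so they do not tell RNA of cells from free RNA. Endothelial-like cells of eWAT_DFAT had 613 [581 to 646] CPM, adipocyte-like cells 504 [472 to 538] and 80 cells led by Igfbp5 and Slc6a12 759 [719 to 802]. After thinning, cells with a Plin1 UMI had 326 [299 to 354] CPM of Id1 against 252 [247 to 258] without in iWAT_DFAT, and 394 [369 to 420] against 322 [316 to 328] in eWAT_DFAT. Within single cells the genes that went with Id1 most in all libraries were other targets of the pathway. The lowest Pearson r of the 4 libraries was 0.288 for Id3, 0.167 for Smad7 and 0.162 for Id2, the 3 highest of 5120 genes.

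**Figure D4:**
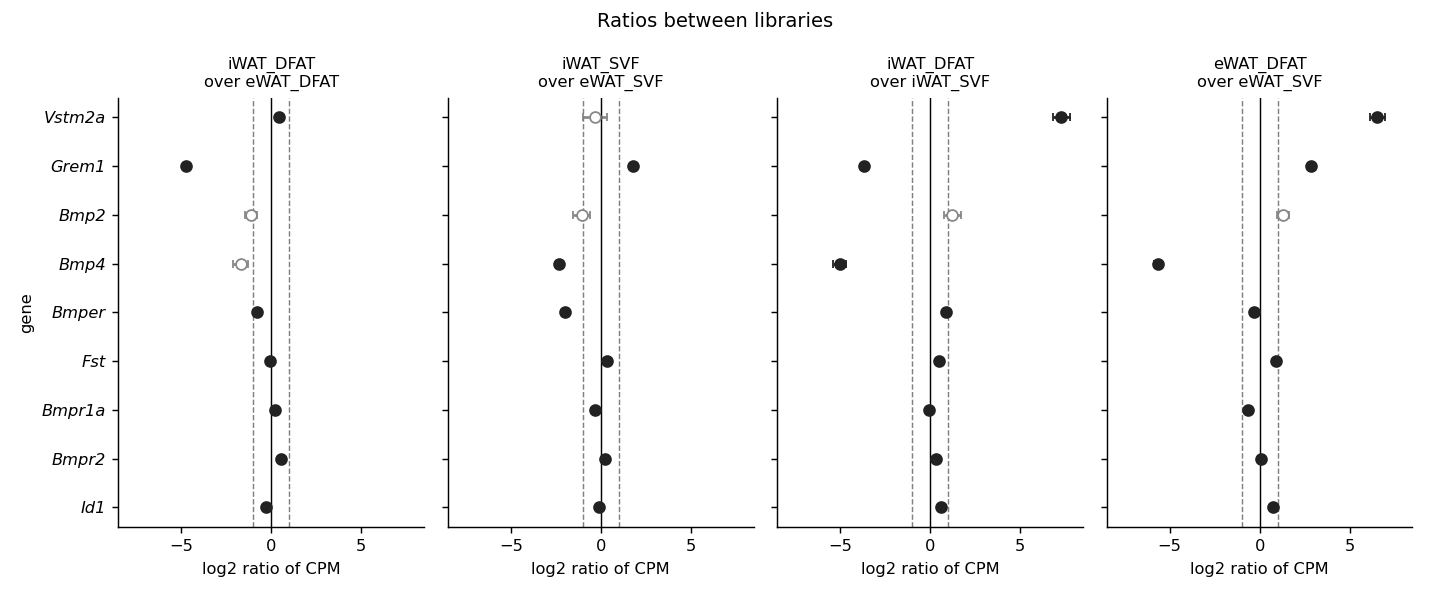
Log2 ratio of CPM for the 9 genes in the 4 comparisons, with exact 95% conditional binomial intervals; dashed lines mark a 2-fold ratio and open grey points are genes under 5 CPM in both libraries. Vstm2a lies at 7.28 and 6.55 for DFAT over SVF cells, Bmp4 at -5.03 and -5.66, and Grem1 changes side between the depots (-4.76 and 1.77) and between the cell types (-3.66 and 2.87).

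Past a minimum of 5 CPM in the higher library, 1 of 7 of the genes, Grem1, was at 2-fold or more between iWAT_DFAT and eWAT_DFAT, where 12.2% of all 10384 genes were. Between iWAT_SVF and eWAT_SVF it was 3 of 7 (Grem1, Bmp4 and Bmper) against 6.88% of all genes. For iWAT_DFAT against iWAT_SVF 3 of 8 were at 2-fold (Vstm2a, Grem1 and Bmp4), with 15.1% of all genes. The same 3 of 8 were for eWAT_DFAT against eWAT_SVF, with 13.1%. The median log2 ratio of the genes that passed was -0.07, -0.11, 0.43 and 0.42 in these comparisons, and that of all genes 0.091, 0.053, 0.088 and 0.070. The genes were chosen for such differences, so nothing is read from these shares.

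Of 62 other genes in lists of the pathway's ligands, receptors, antagonists, transducers and targets, 35 to 37 passed 5 CPM in a comparison. At 2-fold or more were 11 of 35 between the DFAT libraries (7 higher in iWAT), 10 of 37 between the SVF libraries (8 higher in iWAT), 13 of 37 between iWAT_DFAT and iWAT_SVF (6 higher in DFAT cells) and 11 of 35 between eWAT_DFAT and eWAT_SVF (6 higher in DFAT cells). Of all genes past the minimum 12.2%, 6.88%, 15.1% and 13.1% were at 2-fold in these comparisons. These lists too were drawn up with earlier results known, so nothing is read from the difference.

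Among the other ligands Gdf10 was higher in iWAT for both cell types, at 29.3 CPM in iWAT_DFAT, 1.17 in eWAT_DFAT, 7.84 in iWAT_SVF and 1.11 in eWAT_SVF. In iWAT it was also past 2-fold higher in DFAT than in SVF cells. Gdf6 was highest where Bmp4 was, in eWAT_SVF (15.9 CPM, against 0.0980, 1.70 and 2.34 in iWAT_DFAT, eWAT_DFAT and iWAT_SVF). Bmp6 was also highest there, at 33.6 CPM against 12.9 to 15.8. Of the extracellular modulators Tll1, a protease that releases BMPs from chordin, was at 4.44, 48.2, 36.5 and 16.2 CPM, an order like that of Grem1. Crim1 was lowest in iWAT_DFAT (112 CPM against 283 to 347), and Chrdl1 passed the minimum in iWAT_SVF alone (8.05 CPM). Bmp1, a protease of the same kind as Tll1, was highest in iWAT_DFAT (174 CPM against 77.3 to 108), at 2-fold over eWAT_DFAT (1.17) and over iWAT_SVF (1.11). Twsg1, which binds BMPs together with chordin, was at 2-fold between the DFAT libraries (1.01). Fstl3, a relative of follistatin, was lower in iWAT_DFAT than in iWAT_SVF (-1.24).

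Among receptors and co-receptors Acvr2a was lower in DFAT cells of both depots (log2 ratios -1.54 and -1.53) and higher in iWAT for both cell types (1.30 and 1.31). Bmpr1b was higher in iWAT as well (1.16 and 1.12). Eng, endoglin, was lowest in iWAT_DFAT, at 21.2 CPM against 45.8 to 63.0. Acvrl1, a type I receptor, and Rgma, a co-receptor, were lower in eWAT_DFAT than in eWAT_SVF (-1.08 and -1.35). Tgfbr3, betaglycan, was highest in iWAT_DFAT at 521 CPM, against 123 to 161 in the others. Of the inhibitors inside the cell Smad6 had 75.0 CPM in iWAT_DFAT, 47.3 in eWAT_DFAT, 45.3 in iWAT_SVF and 19.9 in eWAT_SVF, and Smurf2, a ubiquitin ligase, was highest in eWAT_DFAT at 210 CPM. Among targets Pparg was higher in DFAT cells, at 44.8 and 71.1 CPM against 17.8 and 8.21 in SVF cells of iWAT and eWAT. Zfp423, a regulator of preadipocyte commitment, had 13.6 and 6.23 CPM in DFAT and 2.58 and 2.68 in SVF cells. Id4 went the other way in iWAT, at 23.9 CPM in iWAT_DFAT, 27.9 in eWAT_DFAT and 55.2 in iWAT_SVF, and it was lowest in eWAT_SVF (log2 ratios -1.21 for iWAT_DFAT over iWAT_SVF and 1.39 for iWAT_SVF over eWAT_SVF). Zeb2 was at 2-fold for DFAT over SVF cells of iWAT (1.15) and Runx2, a bone regulator, for those of eWAT (1.17). Id2 and Id3 stayed under 2-fold in all 4 comparisons, with 129, 76.4, 70.3 and 48.6 CPM for Id2 and 857, 573, 490 and 517 for Id3.

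**Figure D5:**
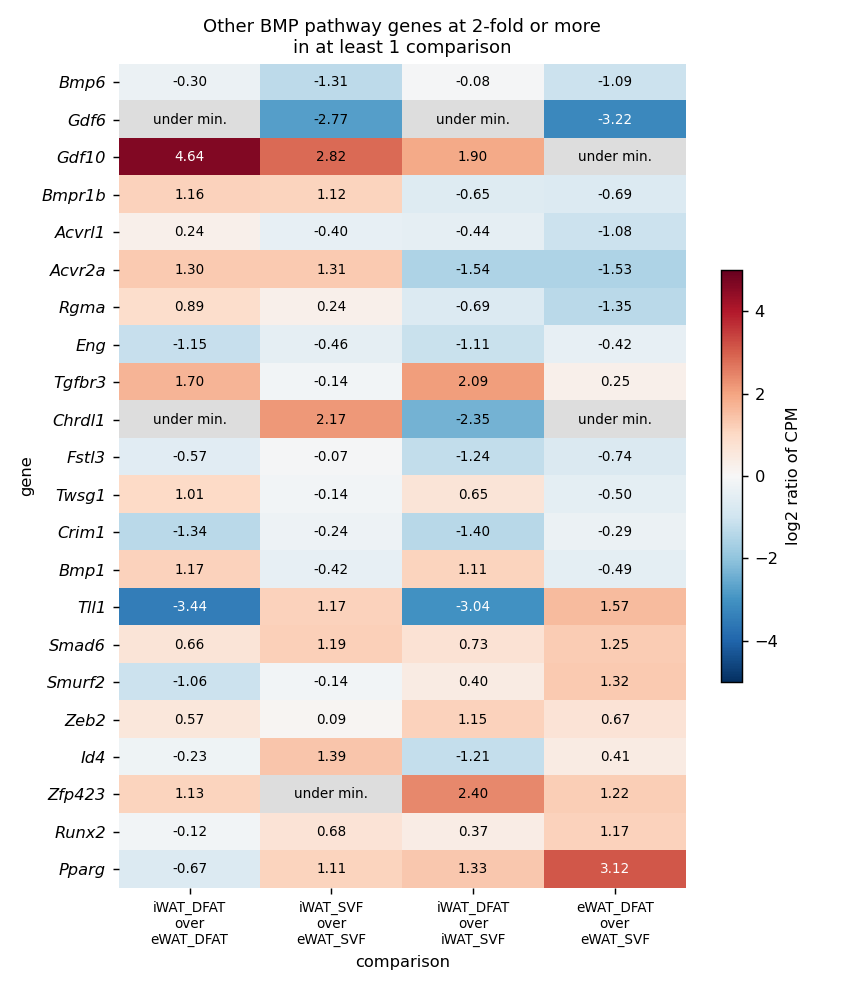
Log2 ratio of CPM in the 4 comparisons for 22 other pathway genes at 2-fold or more in at least 1 of them; red is higher and blue lower in the first library, and grey cells are under 5 CPM in both. Acvr2a is higher in iWAT for both cell types (1.30 and 1.31) and lower in DFAT cells of both depots (-1.54 and -1.53), and Tll1 changes side as Grem1 does.

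Over the 4 libraries the levels nearest to those of Vstm2a, among 6972 genes past 20 CPM in a library and by distance of centred log2 CPM, belonged to Enpp2, which makes lysophosphatidic acid (58.0, 22.2, 0.356 and 0.435 CPM), the chemokine gene Cxcl2 (117, 131, 0.502 and 0.486) and the decoy receptor gene Il13ra2 (25.2, 5.29, 0.0401 and 0.0709). Nearest to Grem1 were Tll1, Megf10 (2.52, 25.3, 41.0 and 13.8 CPM) and Brinp1 (0.828, 27.2, 3.21 and 6.20). Nearest to Bmp4 were Lyz2 (0.278, 2.54, 7.26 and 40.6 CPM), Limch1 (at most 1.58 in DFAT and 19.7 and 34.5 in SVF libraries) and Sh3bgr (0.261, 3.52, 11.3 and 42.1). With 4 points such likeness is a description only. Over single cells the closest partners of the more abundant members were Cdk14, Rbms3 and Ebf1 for Bmper (lowest r of 4 libraries 0.213, 0.206 and 0.200), Thbs1 for Fst (0.176), Fndc3b for Bmpr1a (0.224) and the nuclear RNA Malat1 for Bmpr2 (0.303). The receptors shared these partners, since Malat1 came next for Bmpr1a (0.216) and Fndc3b next for Bmpr2 (0.302). For Vstm2a, Grem1, Bmp2 and Bmp4 the lowest r was at most 0.113. A lowest-of-4 value does not tell whether a gene has closer partners in a single library. Grem1 and Hmga2 had r from 0.113 in iWAT_SVF to 0.281 in eWAT_DFAT, and Bmp4 and Eng from 0.097 in iWAT_DFAT to 0.251 in eWAT_DFAT. No finding is read from these values.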

How the data were processed

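UMI counts per gene and barcode were deposited for 4 libraries, and they precede cell calling. The authors made them with Cell Ranger (7.0.0 and mm10 in the submitters' processing notes, 7.1.0 per the file headers, and 4 for iWAT_SVF). Introns were included according to the paper. Whether iWAT_SVF was counted with the same settings was looked at only through the ratios of intron-rich genes above. The study's removal of background RNA, doublets and library effects was not repeated, and its lower limit of 500 UMIs a cell was tried as an alternative to 5000. No doublet was removed except as an alternative (Scrublet scores, 0.8% per 1000 cells). Groups came from the labels, 1 library each. The total was 211396227 to 242282812 UMIs a library, 183664704 to 199357348 in cells, so a gene without a UMI (3 counts) is under 0.0163 CPM.

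The members and lists were chosen with earlier results of these data known. Named were the 9 members, list genes at 5 CPM and 2-fold in a comparison, and the 3 nearest genes of Vstm2a, Grem1 and Bmp4. Of the 3 genes of highest lowest-of-4 correlation per member, those of Id1 and Bmper were named. So were the first of Fst, Grem1 and Bmp4 and the first 2 of Bmpr1a and Bmpr2. The Plin1 split and the genes shown in it were chosen after their values were seen. Cells were clustered per library (2000 variable genes without the pathway lists, 30 components, 20 neighbours, Leiden resolution 1.0). A cluster took the name of a type if 3 or more markers, and most of its list, were 2-fold up and in 10% of its cells, a rule set after the clusters were seen. A cluster stayed unnamed where its median depth was under its library's divided by 3 and no marker was among its 10 leading genes; a stromal-marker cluster of 107 cells in iWAT_DFAT, at a median of 8417 UMIs, lay just above that limit. Clusters came from scanpy 1.11.5 with leidenalg 0.10.2, intervals from scipy 1.17.1 under Python 3.11.15, and figures from matplotlib 3.10.9. The calculation of ratios was also run on simulated counts with counting error alone. That run covers the arithmetic and says nothing of the spread between cultures. GENCODE M21 matched 32235 of 32285 gene IDs. RefSeq promoters were at hand for 6 of the 9 genes, Bmp2, Fst and Id1 being without an entry. A list gene is not reported here.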

Additional observations from a re-analysis of the deposited data

Results flagged for a closer look

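For 3 genes past 5 CPM, and with intervals on 1 side of 0, the ratio between depots had opposite signs in DFAT and in SVF cells, with 1 library each, and the difference was not tested. Grem1 had a log2 ratio of iWAT over eWAT of -4.76 in DFAT and 1.77 in SVF cells, both past 2-fold. Fst had -0.0743 and 0.33, and Bmpr1a 0.23 and -0.31, all under 2-fold. Vstm2a had 0.41 and -0.32, the latter from levels under the minimum and with an interval of -0.98 to 0.33. For 2 genes the ratio of DFAT over SVF cells had opposite signs in the depots, again not tested. Grem1 had -3.66 in iWAT and 2.87 in eWAT, and Bmper 0.88 and -0.34. The share of all genes with such opposite signs was not counted, and small ratios can pass the rule where UMIs are many. Nothing is read from these counts.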

How the results depend on the processing

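No paired analysis was possible because each group is 1 library, and for the same reason no replicate could be left out. The counts of members at 2-fold stayed within 1.5 times under 12 alternatives in each comparison, with 1 exception: with no minimum level, 3 (Grem1, Bmp2 and Bmp4) were at 2-fold between iWAT_DFAT and eWAT_DFAT, in place of 1. Of 36 log2 ratios, 15 at 2-fold or more, 1 of these 15 changed sign over 9 alternatives: Bmp2 between iWAT_SVF and eWAT_SVF was 0.33 among cells with few cell cycle genes, in place of -1.07. Counting the ratios under 2-fold, 5 signs changed in all: the others were Vstm2a between the SVF libraries, from -0.32 to 0.02 with doublets removed, and, among cells with few cell cycle genes, the same ratio (0.06), Vstm2a between the DFAT libraries (-0.08 in place of 0.41) and Bmpr1a between iWAT_DFAT and iWAT_SVF (0.12 in place of -0.0905). Removing clusters of other cell types moved this Bmp2 ratio to -2.28, the largest shift under that setting, and Bmp4 for eWAT_DFAT over eWAT_SVF from -5.66 to -6.52. Taking the mean of the CPM of single cells moved Bmp2 between iWAT_SVF and eWAT_SVF by 0.71, the largest shift under that setting, with no change of sign. Many ratios left their counting interval under some settings. Among cells with few cell cycle genes 28 of 36 did so, besides the 1 reversed. After centring on the median of all genes 21 did, without clusters of other cell types 18, and with the mean of single cells 17. The remaining alternatives moved none out of its interval. Depth limits Bmp2, with 52 to 251 UMIs a library, and Vstm2a in SVF cells.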
